A study of Homo sapiens with 7 samples.

Results

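The 10 genes described here encode the sliding clamp of DNA replication and the proteins that load it, unload it and finish the lagging strand: PCNA, RFC1, RFC2, RFC3, RFC4, RFC5, ATAD5, FEN1, DNA2 and LIG1. They were chosen by name from the 19970 protein-coding genes annotated on chromosomes 1 to 22 and X. A promoter was taken to reach from 2000 bp before to 500 bp after an annotated transcription start site (TSS) of the gene, and Rb peaks overlapping any such promoter or lying within the gene were collected from all 7 peak lists of the study. Every such peak overlapped a promoter, and none lay only within a gene body.

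Rb, the retinoblastoma protein encoded by RB1, was mapped by CUT&RUN, in which an antibody directs a nuclease to cut out the DNA around a chromatin-bound protein. All libraries came from ZR-75-1, an established breast cancer cell line that expresses the oestrogen receptor. The parental line was given DMSO or 500 nM palbociclib, an inhibitor of the kinases CDK4 and CDK6, for 4 days, and 2 Rb libraries were made for each. RB1-knockout (RB1 KO) cells gave 1 Rb library with DMSO and 1 with 500 nM palbociclib, also after 4 days. The knockout line was a clone grown from a sorted single cell after Cas9 editing, so a difference between clones cannot be told apart from the loss of RB1. A further library of parental cells with palbociclib used a non-targeting IgG2a antibody. The study describes the replicates as separate cultures with separate profiling reactions. With 2 libraries a group, every comparison is limited by the spread between them. Lists of Rb peaks hold no expression, so the markers of the cell line could not be checked in them. With DMSO the parental lists had 996 and 816 peaks, with palbociclib 8399 and 8256. The IgG2a list had 2648 and the RB1 KO lists 65 and 51, of which 4 and 5 lay on chromosomes 1 to 22 or X. The sequencing depth of each library was given by no file. The lowest local background in a list, which scales with depth, was between 0.465 and 0.571 fragments in the 4 parental Rb lists.

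PCNA forms a ring around DNA that tethers polymerases and many repair proteins to the template. The RFC complex, a large subunit RFC1 with the small subunits RFC2 to RFC5, opens the ring and closes it at each primer end, and ATAD5 replaces RFC1 in a related complex that takes the ring off again. On the lagging strand, which is made in short Okazaki fragments, FEN1 cuts short 5′ flaps, DNA2 trims long ones, and LIG1 seals the remaining nick. Rb held in its hypophosphorylated form binds E2F transcription factors at the promoters of replication genes.

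All 10 genes carried an Rb promoter peak in both palbociclib libraries, against 34.9% of all protein-coding genes. In both DMSO libraries a promoter peak was called at 3 of the 10, PCNA, FEN1 and LIG1, against 2.9% of all genes. RFC4 had a peak in DMSO replicate 1 only, which makes 4 of 10 genes with a peak in at least 1 DMSO library, against 6.59%. The remaining 6 genes (RFC1, RFC2, RFC3, RFC5, DNA2 and ATAD5) had a gained peak, called in both palbociclib libraries and in neither DMSO library, against 28.4%. Of the 6974 genes with a peak in both palbociclib libraries, 5663 had a gained one. A gained peak was thus no more frequent at the 10 genes than at bound genes in general. No gene of the 10 had a promoter peak in an RB1 KO library, where 0.01% of genes had one. In the IgG2a library RFC2 was the 1 gene of the 10 with a peak, against 1.95% of genes. When all parental lists were cut to the 816 peaks with the best −log10 q, as many as the shortest list holds, 2 of the 10 genes (LIG1 and PCNA) kept a peak in both palbociclib libraries, against 3.82% of all genes, and none counted as gained, against 0.736%. The gained peak that ranked highest by fold enrichment, that of RFC3 in palbociclib replicate 1, was at rank 2040 of its list. The cut drops such peaks whatever the reason for the longer lists, so it does not test the gained calls.

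The peaks sat at the transcription starts. In each palbociclib library 10 of the 11 peaks of these genes had a summit within 250 bp of an annotated TSS, against 85.0% and 85.1% of all promoter peaks, the exception being the canonical PCNA peak. Their median width was 636 and 575 bp, against 483 and 470 bp over all promoter peaks. The canonical starts of the genes without a shared promoter lie on hg38 at 39366362 of chromosome 4 (RFC1, minus strand), 74254399 of chromosome 7 (RFC2, minus), 33818149 of chromosome 13 (RFC3, plus), 186806482 of chromosome 3 (RFC4, minus), 118016703 of chromosome 12 (RFC5, plus), 68471973 of chromosome 10 (DNA2, minus) and 30831966 of chromosome 17 (ATAD5, plus). For these 7 genes the nearest other coding start was at least 7274 bp away.

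Sequences from within the palbociclib peaks are shown for 6 promoters that differed in how strongly they were bound. Each is hg38 sequence in the direction of transcription, and the first 4 are 201 bp windows centred between the summits of the palbociclib libraries. Capitals mark an E2F match in LIG1, the upstream promoter of PCNA, RFC3 and ATAD5, inverted CCAAT boxes at the canonical promoter of PCNA, and an ETS match in RFC4. LIG1 and PCNA are shown as the most strongly bound of the genes, RFC4 as the gene called in 1 DMSO library, and RFC3 and ATAD5 as gained promoters with an E2F match; for RFC3 and ATAD5 only the bases around the match are given. LIG1 lies on the minus strand at chr19:48170391-48170591, the upstream PCNA promoter on the minus strand at chr20:5126632-5126832, the canonical PCNA promoter on the minus strand at chr20:5119455-5119655, RFC4 on the minus strand at chr3:186806482-186806682, RFC3 on the plus strand at chr13:33818279-33818366 and ATAD5 on the plus strand at chr17:30831968-30831995.
LIG1: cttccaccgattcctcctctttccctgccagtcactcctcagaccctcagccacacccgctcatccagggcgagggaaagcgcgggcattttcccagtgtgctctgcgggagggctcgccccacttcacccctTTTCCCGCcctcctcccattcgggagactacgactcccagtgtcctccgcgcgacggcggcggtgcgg
PCNA upstream promoter: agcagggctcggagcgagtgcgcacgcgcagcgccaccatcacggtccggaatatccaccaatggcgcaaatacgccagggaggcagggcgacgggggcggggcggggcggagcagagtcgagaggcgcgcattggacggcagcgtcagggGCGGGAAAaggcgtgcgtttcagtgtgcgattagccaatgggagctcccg
PCNA canonical promoter: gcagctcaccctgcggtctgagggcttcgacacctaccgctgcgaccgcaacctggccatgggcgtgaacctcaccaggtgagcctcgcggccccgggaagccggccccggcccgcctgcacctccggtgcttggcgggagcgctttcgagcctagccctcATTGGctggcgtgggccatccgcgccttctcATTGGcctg
RFC4: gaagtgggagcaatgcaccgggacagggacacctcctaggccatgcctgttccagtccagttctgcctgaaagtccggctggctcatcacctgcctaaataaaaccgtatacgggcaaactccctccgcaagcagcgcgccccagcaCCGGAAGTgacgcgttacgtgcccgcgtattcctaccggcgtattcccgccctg
RFC3: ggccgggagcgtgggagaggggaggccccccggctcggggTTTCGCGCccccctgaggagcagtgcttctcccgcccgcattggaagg
ATAD5: gcgcaggacgGCGCGAAAacccaattga

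E2F motifs were searched on both strands as TTTCCCGC, TTTCGCGC, TTTGCCGC and TTTGGCGC. Of the 11 windows of the 10 genes (PCNA has 2), 4 held such a match, against 5.79% of 6046 windows of the same length at all promoters bound in both palbociclib libraries. The 4 were LIG1 (starting at −114 bp from the canonical TSS), the upstream PCNA promoter, RFC3 (at 170 bp) and ATAD5 (at 12 bp). The LIG1 match and the upstream PCNA match each overlapped a match to GGGCGG, the GC box, which was found in 5 of the 11 windows and in 70.6% of all. CCAAT was found in 3 windows against 25.5%, the CHR element TTTGAA in 1 (DNA2) against 3.59%, and the ETS motif CCGGAAGT in 1 (RFC4) against 3.29%. The CRE TGACGTCA and the NRF1 motif were in 0 of the 11 windows and in 1.17% and 1.26% of all. In wider windows of 601 bp the E2F letters stood in 5 of 11, against 14.6% of all, the canonical PCNA promoter being added with matches starting at 578, 582 and 608 bp, the first pair overlapping each other, and RFC3 gaining a further match at −55 bp. The CRE then appeared in RFC1 (at −23 bp) and RFC3 (at −78 bp), against 3.54% of all wider windows, and the NRF1 motif in DNA2. RefSeq promoters on GRCh38, from 250 bp before to 50 bp after the start, matched 8 of the 10 genes by symbol, with 9 promoters, DNA2 and ATAD5 having no entry. Of these 9, 3 held the E2F letters (LIG1, RFC3 and the upstream start of PCNA), against 4.09% of 21942 promoters. A match is a description of letters and not a measured binding site. The FEN1, DNA2, RFC1, RFC2, RFC4 and RFC5 windows of either length held none of the E2F words searched. Variants of these words were not searched, so a window without a match is not shown to lack an E2F site.

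**Figure D1:**
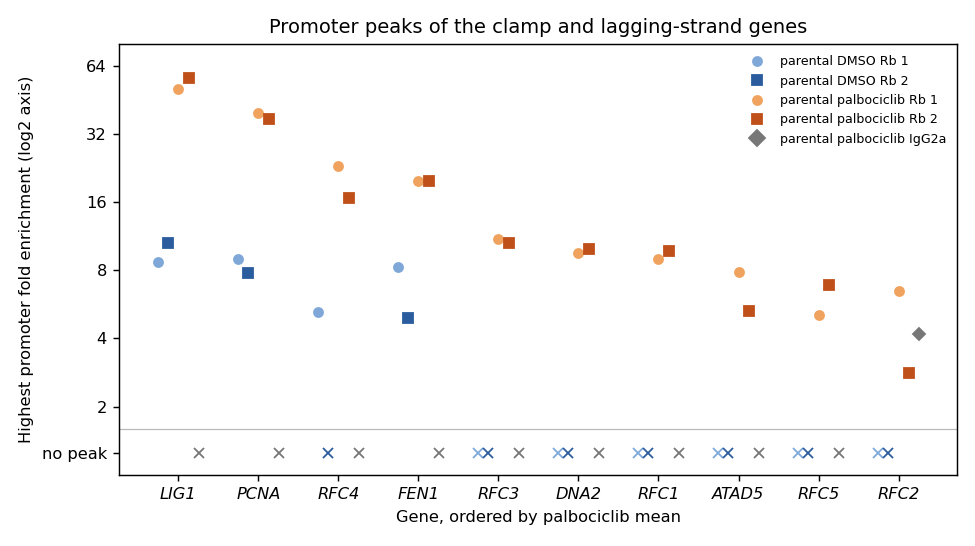
Highest fold enrichment of a promoter peak of each gene (log2 axis) in each library of parental cells; a cross on the lowest line means that no peak was called, and the RB1 KO libraries, which had no peak at any of the 10 genes, are left out. LIG1 and PCNA are highest, 4 genes carry a DMSO peak, and the RFC2 peak of the IgG2a library lies between its palbociclib peaks.

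PCNA was bound at its promoters with both treatments and more strongly with palbociclib. The gene has 2 annotated starts on the minus strand of chromosome 20, a canonical one at 5119958 and an upstream one at 5126626, and each carried its own peak in all 4 parental libraries. At the canonical start the fold enrichment, the pileup of fragments plus 1 over the local background plus 1 at the peak's summit, was 8.99 and 7.82 with DMSO and 39.5 and 37.5 with palbociclib. Both palbociclib values lay far above both DMSO values, and replicates of a treatment differed little. Summits stood 281 and 438 bp downstream of the canonical TSS with DMSO and 426 and 379 bp with palbociclib, in the coding exon 1 or intron 1 of the gene. The peaks were 636 and 571 bp wide with DMSO and 1066 and 1288 bp with palbociclib. At the upstream start the fold enrichment was 4.23 and 6.18 with DMSO and 28.1 and 27.6 with palbociclib. Widths there were 178 and 281 bp with DMSO and 1037 and 841 bp with palbociclib, so the treatments did not overlap in level or width at either start. The upstream peak lies between the PCNA start and the start of CDS2, a phospholipid synthesis gene transcribed the other way from 5126927, 301 bp away, and a peak list cannot assign it to one of the genes.

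Among the clamp loader genes, RFC4 was the highest with palbociclib and the 1 gene with a DMSO peak, while RFC1, RFC2, RFC3 and RFC5 had none. RFC4 had a fold enrichment of 5.24 in DMSO replicate 1, no peak in DMSO replicate 2, and 23.2 and 16.8 with palbociclib. Its summits were placed closely, at −106 bp from the canonical TSS with DMSO and −95 and −105 bp with palbociclib. The DMSO peak of RFC4 had a −log10 q of 4.15 and a pileup of 13 fragments, against 56 and 42 fragments with palbociclib. RFC3 had no DMSO peak and 11.0 and 10.5 with palbociclib. RFC1, the large subunit, had no DMSO peak and 8.97 and 9.75 with palbociclib. For both genes the palbociclib replicates were close to each other. RFC5 had no DMSO peak and 5.08 and 6.93 with palbociclib, with summits 113 and 117 bp downstream of the canonical TSS in the 5′ UTR of exon 1. Its peak in replicate 1 was 295 bp wide and rested on a pileup of 9 fragments, and with a −log10 q of 3.99 it was lost when at least 5 was asked for.

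RFC2, a small subunit, had the lowest palbociclib mean of the 10 genes and replicates that stood apart. Its fold enrichment was 6.48 and 2.81 with palbociclib, a gap of 2.3-fold, wider than at any other of the 10 genes. The pileups were 16 and 15 fragments, nearly equal, while the local background was 1.63 in replicate 1 and 4.69 in replicate 2. The summits of the replicates also lay apart, at 20 and −176 bp from the canonical TSS, and the −log10 q was 8.31 and 1.6. In the IgG2a library, where no Rb antibody was used, RFC2 had a peak 140 bp wide with a fold enrichment of 4.18, a pileup of 6 fragments and a −log10 q of 1.52, and its summit at −211 bp stood near that of replicate 2. At a −log10 q or a fold enrichment of at least 5 the peak of replicate 1 stayed and that of replicate 2 was lost, so RFC2 no longer counted as called in both palbociclib libraries, and the IgG2a peak was lost too. The part of antibody background in the RFC2 peaks was not tested.

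ATAD5, the large subunit of the unloading complex, had no DMSO peak and a fold enrichment of 7.89 and 5.27 with palbociclib, with widths of 454 and 240 bp. The peak of replicate 1 was thus the stronger and the wider. The summits lay 54 and 100 bp downstream of the TSS, and the nearest other coding start, that of CRLF3, was 7274 bp away.

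Of the flap nucleases, FEN1 had peaks with both treatments, and DNA2 had peaks with palbociclib and none with DMSO. At FEN1 the fold enrichment was 8.24 and 4.91 with DMSO against 19.8 and 19.9 with palbociclib. The DMSO replicates stood apart from each other, and both were under the palbociclib libraries. The peak of DMSO replicate 2 had a −log10 q of 2.53, so FEN1 no longer counted as called in both DMSO libraries when a −log10 q or a fold enrichment of at least 5 was asked for. The FEN1 peak covers a shared promoter, since the start of TMEM258, on the other strand, is 109 bp from the FEN1 start at 61792911 on chromosome 11, and a start of FADS2 lies 69 bp downstream. DNA2 had no DMSO peak and 9.57 and 9.94 with palbociclib. Its summits were 169 and 125 bp downstream of the canonical TSS, and its widths were 467 and 575 bp, so the palbociclib libraries were close in level, place and extent.

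LIG1, the ligase that joins Okazaki fragments, was the most strongly bound of the 10 genes in each palbociclib library and in DMSO replicate 2. Its fold enrichment was 8.68 and 10.6 with DMSO and 50.8 and 56.8 with palbociclib. It was exceeded by PCNA, at 8.99, in DMSO replicate 1. At LIG1 the pileup was 27 and 26 fragments with DMSO, against 99 and 115 fragments in the palbociclib libraries, again without overlap. All summits lay upstream of the canonical TSS at 48170344 on chromosome 19, at −206 and −181 bp with DMSO and −143 and −152 bp with palbociclib. Widths were 618 and 632 bp with DMSO and 1216 and 1125 bp with palbociclib. This promoter too is shared: ZSWIM9 starts on the other strand 336 bp from the canonical LIG1 start and 77 bp from the nearest annotated LIG1 start, at 48170603. As at the upstream PCNA start, a peak list cannot assign the peak to one of the genes.

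**Figure D2:**
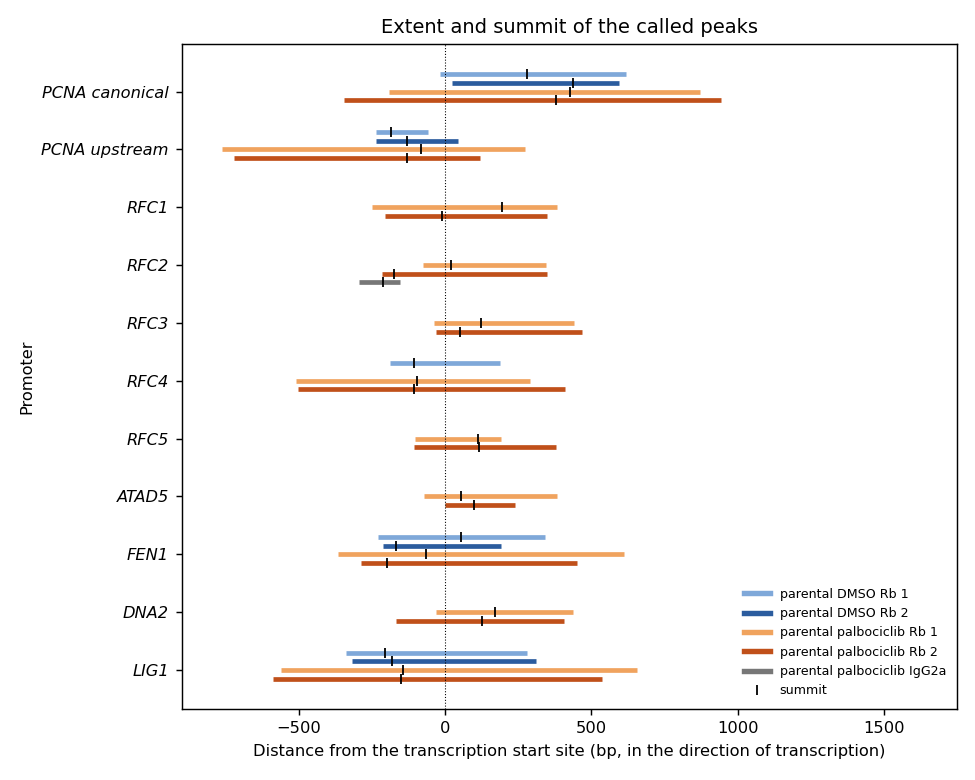
Extent (bars) and summit (black ticks) of each called peak against distance in bp from the canonical TSS, or from the upstream TSS for the upstream PCNA promoter, with 1 colour per library. Palbociclib peaks cover the DMSO peaks where both were called and reach further on both sides, and the RFC2 peak of the IgG2a library lies upstream of the start.

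In order of the mean over the palbociclib libraries the genes ran LIG1 (53.8 ± 4.25, SD, n = 2), PCNA (38.5 ± 1.48), RFC4 (20.01 ± 4.57), FEN1 (19.9 ± 0.0623), RFC3 (10.8 ± 0.334), DNA2 (9.76 ± 0.265), RFC1 (9.36 ± 0.555), ATAD5 (6.58 ± 1.85), RFC5 (6.003 ± 1.31) and RFC2 (4.64 ± 2.59). LIG1, PCNA and the pair of RFC4 and FEN1 did not overlap in their replicates, nor did that pair and RFC3, or RFC3 and DNA2. RFC4 and FEN1 overlapped, as did DNA2 and RFC1, and so did ATAD5, RFC5 and RFC2. Among the 6974 genes bound in both palbociclib libraries, 99.5% had a lower mean than LIG1, 98.4% a lower one than PCNA, 90.5% than RFC4 and 90.2% than FEN1. The gained genes stood lower, from RFC3 with 66.2% of bound genes below it to RFC2 with 7.87%. Their median was 7.97, close to the 7.42 of all 5663 genes with a gained peak, while the median of all 10 was 10.3 and that of all bound genes 8.36. A gene called in DMSO tends to be high with palbociclib throughout the data: the 580 genes called in all 4 parental libraries had a median of 25.6.

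**Figure D3:**
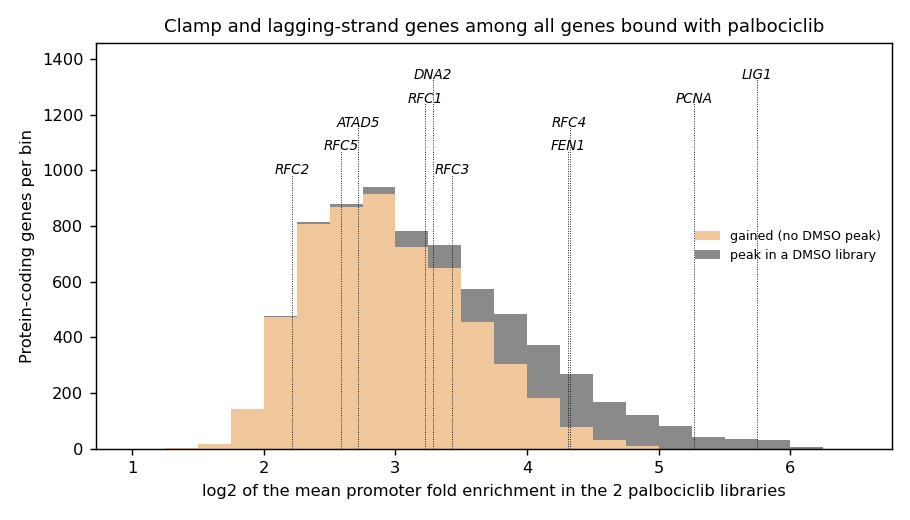
Number of protein-coding genes by log2 of the mean promoter fold enrichment in the 2 palbociclib libraries, stacked by whether a DMSO library had a promoter peak, with dotted lines at the 10 genes. LIG1, PCNA, RFC4 and FEN1 stand in the upper tail, and the 6 genes without a DMSO peak lie in the body of the distribution.

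How far the absence of a DMSO peak reaches depends on what those lists could call. With the background seen at the same place with palbociclib, the DMSO lists would have called a fold enrichment of 3.99 at RFC1, RFC3 and RFC4, 4.15 at DNA2, 4.51 at RFC5, 3.70 at ATAD5 and 3.61 at RFC2. The palbociclib mean exceeded that limit 5.02-fold at RFC4, 2.70-fold at RFC3, 2.35-fold at both RFC1 and DNA2, 1.78-fold at ATAD5, 1.33-fold at RFC5 and 1.29-fold at RFC2. At RFC5 and RFC2 a DMSO signal only a little under the palbociclib mean was therefore not detectable. At RFC2 the value of palbociclib replicate 2, 2.81, was itself under the limit. Its −log10 p of 4.48 was also under the lowest of the DMSO lists, 5.23 in replicate 1 and 5.33 in replicate 2. A peak equal to it would thus not have been called with DMSO. No gene without a peak is shown to have lacked Rb.

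The regions called in all 4 parental lists allowed a test of the level itself. Across 476 such regions, log2 fold enrichment was fitted with limma and adjusted by Benjamini-Hochberg, and 475 regions, or 99.8%, were higher with palbociclib. The median difference was 1.90 (log2), so the difference at the 4 regions of these genes is read against it. The canonical PCNA promoter rose by 2.198 (SE 0.227, adjusted p = 1.81e-06), a larger difference than 80.04% of regions. At the upstream PCNA promoter the rise was 2.45 (SE 0.248, adjusted p = 1.64e-06), larger than 93.7%. LIG1 rose by 2.49 (SE 0.232, adjusted p = 1.57e-06), larger than 94.7%, and FEN1 by 1.64 (SE 0.267, adjusted p = 3.83e-05), larger than 25%. The standing of FEN1 rested on single DMSO libraries, since its difference was 2.02, larger than 61.6% of regions, without DMSO replicate 1 and 1.27, larger than 7.98%, without DMSO replicate 2. Each was higher in both palbociclib libraries than in either DMSO library, and each difference lay within the range of the other regions. The upstream PCNA promoter rose by 2.17, larger than 73.7% of regions, without DMSO replicate 1 and by 2.72, larger than 98.5%, without DMSO replicate 2. With the pileup divided by the lowest background of its list in place of the fold enrichment, LIG1 rose by 1.96, larger than 52.9% of regions, and FEN1 by 1.91, larger than 46.4%. On that measure the upstream PCNA promoter rose by 2.16, larger than 73.3%, and the canonical one by 2.15, larger than 72.3%. The standing of all 4 regions thus differed between the measures. The local background at LIG1 was 2.23 and 1.56 with DMSO and 0.969 and 1.04 with palbociclib.

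**Figure D4:**
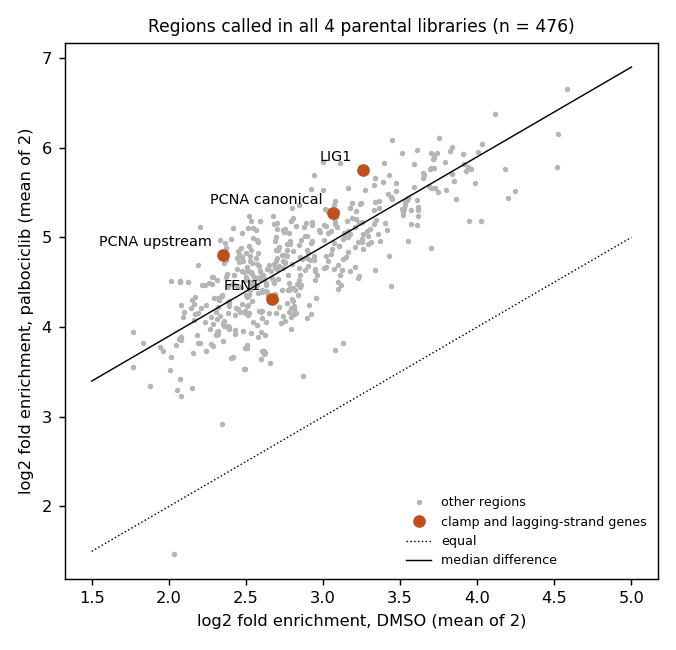
Mean log2 fold enrichment over the 2 palbociclib libraries against that over the 2 DMSO libraries for the 476 regions called in all 4, with the regions of these genes in orange, the dotted line at equality and the solid line at the median difference. LIG1 and both PCNA promoters lie above the solid line and FEN1 below it, all within the spread of the other regions; without DMSO replicate 1 FEN1 would lie above the median difference.

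Peaks were also wider with palbociclib. In the same fit on log2 width, 441 of the 476 regions, or 92.6%, were wider, with a median difference of 1.49. The upstream PCNA peak widened by 2.06 (SE 0.291, adjusted p = 0.00373), the canonical one by 0.96 (SE 0.192, adjusted p = 0.00904), LIG1 by 0.90 (SE 0.165, adjusted p = 0.00702) and FEN1 by 0.82 (SE 0.268, adjusted p = 0.0367). The canonical PCNA, LIG1 and FEN1 peaks widened by less than the median region, with 14.1%, 10.9% and 8.61% of regions below them. With DMSO these peaks were wider than the median promoter peak, at 269 bp in replicate 1 and 233 bp in replicate 2. A link between DMSO width and widening was not tested. None of the 4 calls on width held without palbociclib replicate 1, where the adjusted p ran from 0.0513 to 0.202, and that of the upstream PCNA peak alone held without palbociclib replicate 2, at 0.0406. The FEN1 call was lost also without DMSO replicate 2, at 0.108. Over all regions, the number called wider fell to 180 without palbociclib replicate 1 and to 212 without palbociclib replicate 2.

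The genes with a peak pattern most like that of PCNA over the 7 libraries were ING5, a subunit of histone acetyltransferase complexes, ESR2 and KHSRP, an RNA-binding protein, out of 556 candidates called in the same libraries. Likeness was the distance of log2 fold enrichment over the 4 parental libraries, which was 0.172 for ING5, 0.172 for ESR2 and 0.180 for KHSRP. ESR2, which encodes oestrogen receptor beta, had 9.74 and 7.36 with DMSO and 37.1 and 37.8 with palbociclib.

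A list of 26 further genes of clamp and lagging-strand biology was set beside the 10. It held 7 genes of the other loaders and of the 9-1-1 checkpoint clamp, 11 partners and modifiers of PCNA, and 8 genes of RNA primer and nick processing. Both palbociclib libraries had a promoter peak at 21 of the 26, against 34.9% of all protein-coding genes. A peak in both DMSO libraries was called at 5, against 2.9%, and a gained peak at 12, against 28.4%. Among all genes with a peak in both palbociclib libraries, 5663 of 6974 had a gained one, a larger share than 12 of 21. None had a peak in an RB1 KO library, and 1 (HLTF) had a peak in the IgG2a library, against 0.01% and 1.95%. By group, peaks in both palbociclib libraries were called at 6 of 7, 8 of 11 and 7 of 8. Called in all 4 parental lists and highest were DTL, the substrate receptor of the ubiquitin ligase that acts on PCNA-bound proteins, PARP1, the sensor of DNA breaks, RAD1, a ring subunit of the 9-1-1 clamp, and EXO1, a 5′ exonuclease. DTL had 13.7 and 12.7 with DMSO and 49.4 and 74.1 with palbociclib, and its palbociclib mean was above that of LIG1. PARP1 had 8.99 and 8.95 with DMSO and 34.7 and 29.6 with palbociclib. In RAD1 and EXO1 palbociclib means were 21.4 and 20.1. HLTF and SHPRH, ligases that extend ubiquitin chains on PCNA, and HUS1, another 9-1-1 subunit, had no peak in either palbociclib list, and UBE2B and LIG3 had one in replicate 2 only. LIG3, the ligase of mitochondria and single-strand break repair, had 5.62 there, against 56.8 for LIG1 in the same library.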

How the data were processed

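Peak lists of 7 CUT&RUN libraries were used, and the title of each sample gave its group. Per the methods of the study, reads were trimmed and mapped to hg38 (Bowtie2 version 2.3.4.1), reads in blacklisted regions and the mitochondrial genome were dropped, and duplicates were kept. The authors called peaks on each library alone with MACS2 (version 2.2.7.1) from paired fragments, against IgG, at a q cutoff of 0.05. The control of the IgG2a list itself is not given in the sources used here. The deposited fold enrichment is a ratio of pileup plus 1 to background plus 1 at the summit. The deposited −log10 p and −log10 q, with the score the authors' caller derived from them, were used to filter peaks. Pileup and background were recovered as the whole-number pileup that satisfies both fold enrichment and the Poisson −log10 p, with a largest misfit of 0.000656 on chromosomes.

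Starts came from GENCODE 44 on GRCh38. The highest fold enrichment among a gene's promoter peaks was its level. Regions were joined peaks called in all 4 parental lists, fitted with limma 3.58.1 in R 4.3.3 without a replicate block, at an adjusted p of 0.05, after testing on simulated data. Such regions passed a cutoff in every list, so peaks absent from a list took no part in the fit. Members and lists were chosen with earlier results of these data known. Named are all 10 genes with other coding starts within 1000 bp, the 3 genes most like PCNA, and, of the list of 26, the 4 highest in all 4 parental lists and those without a peak in both palbociclib lists; CRLF3 and genes named beyond this rule were chosen after their values were seen. Peaks and genes are not replicates, and no p was computed over them.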

Additional observations from a re-analysis of the deposited data

How the results depend on the processing

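With lists of equal length, the genes with a promoter peak in both palbociclib libraries were 2 instead of 10 (3.82% instead of 34.9% of all genes), and those with a gained peak 0 instead of 6 (0.736% instead of 28.4%). The IgG2a peak at RFC2 was lost at a −log10 q of at least 5 and at a fold enrichment of at least 5, giving 0 genes for each in place of 1. Asking for a −log10 q of at least 5 in all 4 lists left 271 regions higher, out of 272 such regions, without FEN1 and the upstream PCNA promoter. The count of regions with a different width, without each parental replicate in turn (added after seeing the data), ran from 180 to 452, the low values of 180 and 212 coming without palbociclib replicate 1 or 2. With a replicate block, 475 regions differed in fold enrichment and 435 in width, and all 4 regions of the genes kept their calls on both measures, with adjusted p from 7.27e-06 to 6.07e-05 on fold enrichment. Deviations of the same-numbered libraries had a correlation of 0.0748 over 476 regions. A correlation over regions cannot show a shift common to all of them, so shared processing of same-numbered libraries was not tested. No result reversed. Fold enrichment calls of the 4 regions held without any 1 library, with differences from 1.27 to 2.72 (log2), where the lone library of a group was assumed to vary like the others. Other promoter definitions left the counts called in both palbociclib libraries, in both DMSO libraries and gained as they were. The depth of each library is unknown, so no interval was given for a level.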

Other observations

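The small subunits RFC2 to RFC5 are shared by loaders that differ in their large subunit, and 3 of the 4 large subunits (RFC1, ATAD5 and CHTF18, but not RAD17, the last pair named after their values were seen) had no DMSO peak and a peak in both palbociclib libraries. Such a gained peak was called at 28.4% of all protein-coding genes, and at 5663 of the 6974 genes bound in both palbociclib libraries. The count therefore does not set the large subunits apart from other bound genes. CHTF18, of the loader for sister chromatid cohesion, had a fold enrichment of 14.0 and 11.7 with palbociclib, above RFC1 in both libraries. RAD17, which loads the 9-1-1 clamp, had 7.56 in DMSO replicate 1, no peak in DMSO replicate 2, and 10.6 and 7.21 with palbociclib, so its DMSO value lay between its palbociclib values. RFC4, in contrast, had a DMSO peak in the same library well under both of its palbociclib values. These are values of single libraries, and the difference between the genes was not tested.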
